A study of Mus musculus with 8 samples.

Results

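The BMP and GDF ligands described here are 10 genes of bone morphogenetic proteins and growth and differentiation factors, Bmp2, Bmp3, Bmp4, Bmp5, Bmp6, Bmp7, Bmp8a, Gdf5, Gdf6 and Gdf10. They were taken by symbol from 49315 gene IDs in a table of RNA sequencing counts, and 9 of them passed the filter on low counts that left 17743 tested genes; Gdf6 did not. The RNA came from calvaria (the skull roof, made of flat bones) of female C57BL6 mice aged 2 to 3 days. The tested mice were 4 global Girk3 knockouts (Girk3-/-, here KO), which lack a subunit of G protein-gated inwardly rectifying potassium channels encoded by Kcnj9, and they were set against 4 WT mice; neither group received an agent. The labels do not say how the deletion was made or whether litters were shared, so p-values measure the spread between these 8 samples. By its title the series is about bone mass in mice without Girk3, and the comparison asks which transcripts of this ligand family differ in bone.

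BMPs and GDFs are secreted dimers of the TGF-beta superfamily that bind pairs of type I and type II serine/threonine kinase receptors. Most of them lead to phosphorylation of SMAD1, SMAD5 and SMAD9, which enter the nucleus with SMAD4 and switch on genes such as the Id family. In the skull roof, BMP signalling acts on suture mesenchyme and osteoblasts and takes part in bone formation, while secreted antagonists such as noggin and chordin bind the ligands outside the cell. BMP3 and GDF10 stand apart in the family, since BMP3 is known as an inhibitor of bone formation.

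Library totals were 35.4 to 54.3 M counts in KO and 42.7 to 49.6 M counts in WT. KO library 4, with the lowest total, held 28520 genes with at least 1 count. The other KO libraries held 25047 to 25729 such genes and the WT libraries 24545 to 25085. Kcnj9 itself held 2, 5, 7 and 9 counts in KO libraries 1 to 4 and 0, 0, 1 and 4 counts in WT libraries 1 to 4, so at this depth it did not check the labels, and KO means the libraries labelled so. Osteoblast markers summed to 81441 to 113664 CPM (counts-per-million on TMM-scaled library totals) in KO and 97478 to 112039 CPM in WT, with none of the 8 genes at 0, as the tissue label says. Col1a1 made up most of these sums, at means of 78420 CPM in KO and 85440 CPM in WT. Skeletal muscle markers ran from 35.2 to 2468 CPM in KO and from 6.10 to 1687 CPM in WT, and they were lowest in KO libraries 2 and 3 and WT library 3. In bulk tissue, a difference in RNA per cell and a difference in the number of cells cannot be told apart.

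Across all tested genes, 234 (1.32%) passed edgeR's quasi-likelihood test at an adjusted p under 0.05, of which 79 (0.445%) were higher and 155 (0.874%) lower in KO. With library totals in place of TMM scaling, 53.3% of the calls were higher, against 33.8% with it. Among the 9 tested ligands, 1 rose (Bmp4), 1 fell (Gdf10) and 7 did not pass. The groups did not overlap for 4 ligands, with KO higher for Bmp2, Bmp4 and Bmp6 and KO lower for Gdf10; over all tested genes this held for 10.6%, 4.63% with KO higher and 5.96% with KO lower. At an unadjusted p under 0.05 there were 5 ligands, 4 higher and 1 lower, against 17.4% of all tested genes. The median log2 change of the 9 ligands was 0.11, against -0.00029 over all tested genes. The list was not tested as a set.

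The promoters of Bmp4 and Gdf10, the 2 ligand genes that passed, are shown because they are the regulatory sequences next to the transcripts that differed. They are RefSeq windows on GRCm38.p6, 250 bases before to 50 bases after the transcription start, both on chromosome 14: chr14:46390620-46390919 on the minus strand for Bmp4 and chr14:33923337-33923636 on the plus strand for Gdf10. Capitals mark matches, on either strand, to any of 5 motifs: TATAAA (the TATA box), GGGCGG (the GC box), GGCGCC (a GC-rich element bound by BMP SMADs), CACGTG (an E-box) and TGANTCA (the AP-1 site).
Bmp4: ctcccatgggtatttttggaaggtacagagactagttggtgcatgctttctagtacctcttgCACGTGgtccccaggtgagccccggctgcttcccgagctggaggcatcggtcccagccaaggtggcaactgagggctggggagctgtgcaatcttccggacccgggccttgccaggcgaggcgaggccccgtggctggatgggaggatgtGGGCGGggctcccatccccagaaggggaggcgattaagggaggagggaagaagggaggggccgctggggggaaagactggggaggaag
Gdf10: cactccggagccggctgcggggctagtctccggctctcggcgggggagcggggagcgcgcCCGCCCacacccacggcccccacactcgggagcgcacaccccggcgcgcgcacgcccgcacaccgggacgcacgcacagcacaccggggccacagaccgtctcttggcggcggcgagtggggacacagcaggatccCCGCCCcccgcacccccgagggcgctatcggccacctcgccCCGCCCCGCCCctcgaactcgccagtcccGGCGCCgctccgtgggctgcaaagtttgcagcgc
The Bmp4 window holds 1 E-box, whose first base is at -188 from the start, and 1 GC box at -38. The Gdf10 window holds GC boxes at -190, -54, -13 and -8, the last 2 sharing a base, and 1 GGCGCC at 16 bases past the start. Neither window has TATAAA or TGANTCA. Over 32851 promoter windows of the same length, TATAAA was in 13.6%, GGGCGG in 35.7%, GGCGCC in 11.9%, CACGTG in 7.15% and TGANTCA in 7.81%. GC content was 64% in the Bmp4 window and 77.3% in the Gdf10 window, against a median of 52.7%. Such matches describe the letters and do not show that a factor binds. Windows were matched for 5 of the 10 genes, the others being Bmp6, Bmp8a and Bmp5; Bmp2, Bmp3, Bmp7, Gdf5 and Gdf6 were not matched.

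BMP2 and BMP4 are close relatives and the most studied inducers of bone, and Bmp4 was the ligand gene that rose. Bmp4 (ENSMUSG00000021835, minus strand of chromosome 14, 46383520 to 46390669, GRCm38/mm10) was at 27.1, 26.1, 27.0 and 29.3 CPM in KO libraries 1 to 4, against 21.4, 22.1, 18.2 and 19.8 CPM in WT libraries 1 to 4. Every KO library lay above every WT library. The means were 27.4 ± 1.38 CPM in KO and 20.4 ± 1.74 CPM in WT (SD, n = 4 each), a 1.34-fold difference (log2 change 0.43 ± 0.079 SE, 95% interval 0.25 to 0.60, edgeR adjusted p = 0.0233). The log2 change ran from 0.38 to 0.48 over the 20 alternative settings. The call was lost without any 1 of KO libraries 1, 2 and 3 and WT libraries 3 and 4 (edgeR adjusted p 0.0512 to 0.0739). Without the 3 muscle-poor libraries (KO 2 and 3, WT 3) the log2 change was 0.43 and the edgeR adjusted p = 0.33. Of its exon bases, 3.96% overlap the gene model Gm15217 on the opposite strand, which held at most 16 counts in any library, against 814 to 1470 for Bmp4.

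Bmp2 (ENSMUSG00000027358, chromosome 2 from 133552159 to 133562885) was at 40.0, 36.8, 38.9 and 38.1 CPM in KO libraries and 30.2, 34.4, 33.0 and 29.6 CPM in WT libraries. Here too the groups did not overlap, with means of 38.4 ± 1.33 CPM in KO and 31.8 ± 2.28 CPM in WT (SD, n = 4 each). The log2 change of 0.27 ± 0.0702 (SE, 95% interval 0.12 to 0.43) did not pass over all genes in edgeR (adjusted p = 0.0817), while DESeq2 called it (adjusted p = 0.0251). Over the 20 alternative settings its adjusted p ran from 0.0251 to 0.465 and its log2 change from 0.24 to 0.33.

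**Figure D1:**
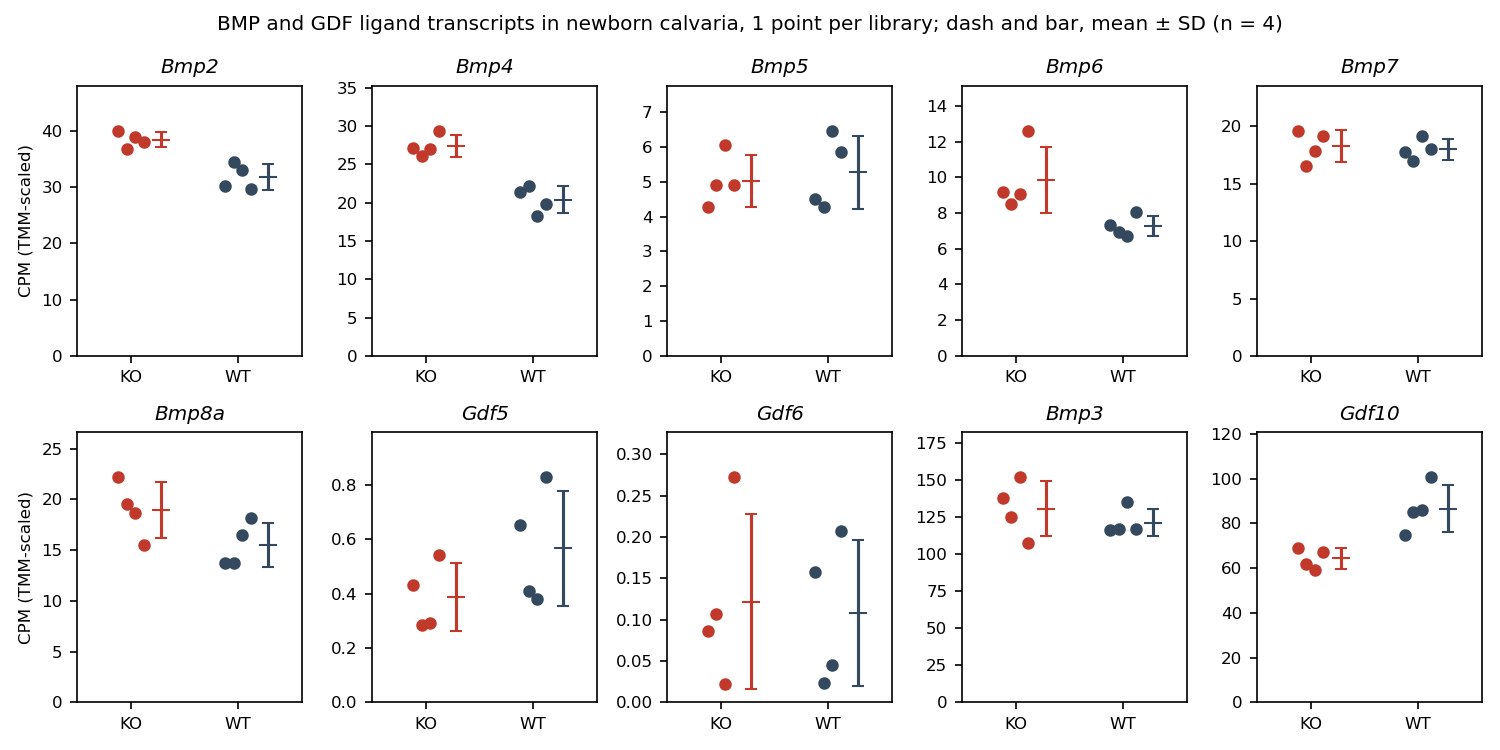
CPM, scaled with TMM factors, of the 10 ligand genes (y axes, each from 0) in the 4 KO libraries (left) and the 4 WT libraries (right), 1 point per library, with the mean and SD beside them. The KO points of Bmp2, Bmp4 and Bmp6 lie above all WT points, those of Gdf10 lie below, and the groups of the other 6 genes overlap.

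BMP5, BMP6, BMP7 and BMP8A form a second subgroup, of which BMP6 and BMP7 are known to induce bone; none of their 4 genes passed the edgeR test (2 at an unadjusted p under 0.05, 0 in DESeq2 and 0 in limma-voom). Bmp6 (chromosome 13 from 38345107 to 38500302) was at 9.18, 8.51, 9.08 and 12.6 CPM in KO libraries and 7.36, 6.95, 6.73 and 8.05 CPM in WT libraries. The groups did not overlap, and KO library 4 stood well above the other KO libraries. Its log2 change of 0.43 ± 0.131 (SE, 95% interval 0.15 to 0.72) was about as large as that of Bmp4 with a wider error (edgeR adjusted p = 0.128), and it was 0.30 without KO library 4. Of the Bmp6 exon bases, 5.74% overlap Txndc5 on the opposite strand, and Txndc5, a protein disulfide isomerase gene, was far more abundant at 498 ± 11.2 CPM in KO and 451 ± 28.1 CPM in WT (SD, n = 4 each), so the value of Bmp6 is less certain, since the strand setting of the counting is not known.

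Bmp8a (chromosome 4 from 123312645 to 123343252) was at 22.2, 19.5, 18.7 and 15.5 CPM in KO libraries and 13.7, 13.7, 16.5 and 18.2 CPM in WT libraries. KO library 4 fell within the WT range, and the log2 change of 0.29 ± 0.122 (SE, 95% interval 0.02 to 0.56) did not pass (edgeR adjusted p = 0.252). Bmp8a has a close copy, Bmp8b: 8.74% of the 50-base windows of its transcripts also occur in another gene, Bmp8b or Gm17244, so its reads can be shared. Bmp8b was low, at 0.246 ± 0.048 CPM in KO and 0.265 ± 0.0857 CPM in WT (SD, n = 4 each).

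Bmp7 (chromosome 2 from 172868012 to 172940321), needed for kidney and eye development and expressed in bone, was at 19.6, 16.5, 17.8 and 19.1 CPM in KO libraries and 17.8, 17.0, 19.2 and 18.0 CPM in WT libraries. The ranges lay on each other, and the 95% interval of the log2 change, -0.15 to 0.20, was the narrowest of the ligands that crossed 0 (0.02 ± 0.0799 SE, edgeR adjusted p = 0.92). Bmp5 (chromosome 9 from 75775364 to 75900310), the gene of the mouse short ear mutation, was the least abundant of the subgroup. It stood at 4.26, 4.90, 6.06 and 4.92 CPM in KO libraries and 4.50, 4.28, 6.46 and 5.86 CPM in WT libraries, with a log2 change of -0.07 ± 0.165 (SE, 95% interval -0.43 to 0.29, edgeR adjusted p = 0.873). The gene model Gm26903 covers 46.7% of the Bmp5 exon bases on the opposite strand and held at most 6 counts in any library, so the Bmp5 level is less certain.

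GDF5 and GDF6 act mainly in the joints between skeletal elements, and both genes were near the lower end of detection in calvaria. Gdf5 (chromosome 2 from 155941023 to 155945367) held 13 to 40 counts a library, at 0.433, 0.284, 0.294 and 0.544 CPM in KO libraries and 0.652, 0.409, 0.380 and 0.828 CPM in WT libraries. The groups overlapped, and the 95% interval of the log2 change was wide, -1.35 to 0.23 (-0.56 ± 0.362 SE, edgeR adjusted p = 0.449). Of the Gdf5 exon bases, 40.3% overlap the gene model Gm15557 on the opposite strand, which was at 0 in every library, so the Gdf5 level is less certain. Gdf6 (chromosome 4 from 9844372 to 9862345) held 4, 6, 1 and 10 counts in KO libraries and 7, 1, 2 and 10 counts in WT libraries. Its level was 0.122 ± 0.106 CPM in KO and 0.108 ± 0.0882 CPM in WT (SD, n = 4 each; exact permutation p = 0.914, two-sided, where 0.0286 is the smallest the design allows). Libraries of both groups held fewer than the floor of 3 counts, which was at most 0.0848 CPM, so a difference in Gdf6 was not detectable at this depth.

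BMP3 and GDF10, also called BMP3B, form the subgroup known for opposing or modulating other BMPs, and Gdf10 was the ligand gene that fell. Gdf10 (ENSMUSG00000021943, chromosome 14 from 33923587 to 33937983, plus strand) was at 68.8, 61.7, 59.4 and 67.4 CPM in KO libraries, against 74.8, 85.0, 86.0 and 100.5 CPM in WT libraries. Every KO library lay below every WT library, and WT library 4 was the highest. The means were 64.3 ± 4.5 CPM in KO and 86.6 ± 10.6 CPM in WT (SD, n = 4 each), so the KO level was 0.743 of the WT level (log2 change -0.43 ± 0.0905 SE, 95% interval -0.63 to -0.23, edgeR adjusted p = 0.0399). The log2 change stayed between -0.49 and -0.34 in all 20 alternative settings. The call was lost without any 1 of KO libraries 1, 2 and 3 and WT libraries 2, 3 and 4 (edgeR adjusted p 0.055 to 0.143), when libraries were scaled by their totals (0.0639), in limma-voom (0.0617) and without the 3 muscle-poor libraries (log2 change -0.34, 0.517).

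Bmp3 (ENSMUSG00000029335, chromosome 5 from 98854415 to 98884396) was at 138, 125, 152 and 108 CPM in KO libraries and 117, 117, 135 and 117 CPM in WT libraries. The KO libraries reached both above and below the WT range. The log2 change of 0.11 ± 0.0998 (SE, 95% interval -0.11 to 0.32) did not pass (edgeR adjusted p = 0.625), and this interval does not overlap that of Gdf10; the difference between the changes of the 2 genes was not tested.

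**Figure D2:**
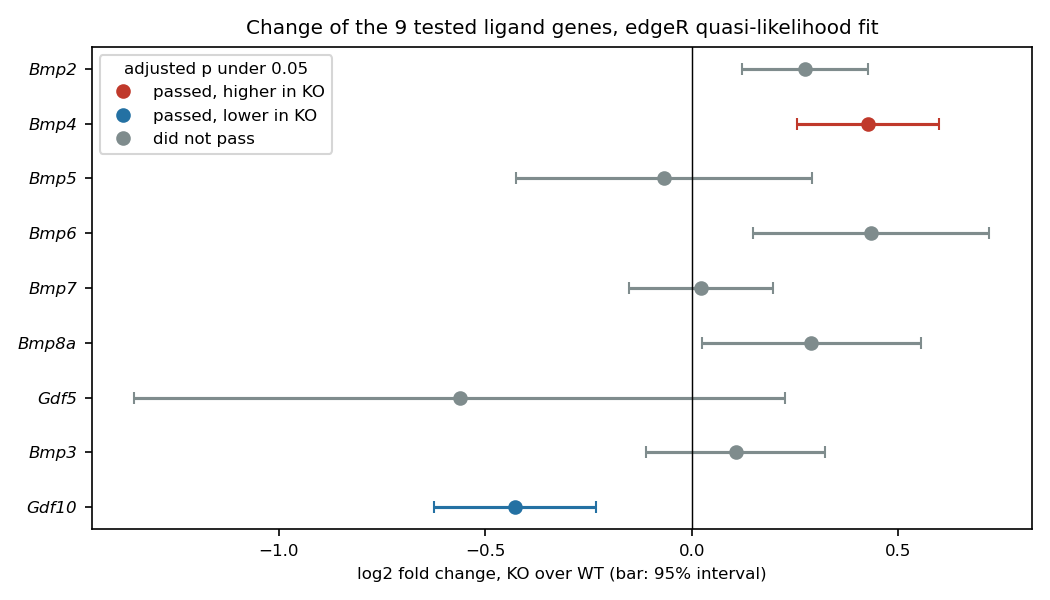
Log2 fold change of the 9 tested ligand genes, KO over WT (x axis), with 95% intervals from the edgeR fit; colour marks an adjusted p under 0.05. Bmp4 at 0.43 and Gdf10 at -0.43 passed, and the intervals of Bmp2, Bmp6 and Bmp8a lie above 0 without passing the adjustment over all genes.

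Levels of different genes were compared per exon length, as CPM divided by exon length in kilobases (RPKM). In KO the order was Bmp3 (17.7 ± 2.52 RPKM), Gdf10 (12.3 ± 0.865), Bmp4 (12.2 ± 0.616), Bmp2 (10.8 ± 0.373), Bmp8a (7.89 ± 1.15), Bmp7 (4.55 ± 0.342), Bmp6 (2.52 ± 0.476), Bmp5 (1.25 ± 0.185), Gdf5 (0.168 ± 0.0534) and Gdf6 (0.0345 ± 0.0301) (RPKM, SD, n = 4). In WT it was Gdf10 (16.6 ± 2.03 RPKM), Bmp3 (16.4 ± 1.23), Bmp4 (9.06 ± 0.774), Bmp2 (8.94 ± 0.642), Bmp8a (6.45 ± 0.909), Bmp7 (4.48 ± 0.227), Bmp6 (1.86 ± 0.149), Bmp5 (1.31 ± 0.262), Gdf5 (0.245 ± 0.0916) and Gdf6 (0.0307 ± 0.025) (RPKM, SD, n = 4). From Bmp4 down, the genes had the same places in both groups, and Bmp3 and Gdf10 exchanged theirs. Genes on the opposite strand overlap 46.7% of the Bmp5 and 40.3% of the Gdf5 exon bases, so the places of Bmp5 and Gdf5 are less certain. Neighbours whose library ranges overlapped were Gdf10 and Bmp4 in KO, and Gdf10 and Bmp3 as well as Bmp4 and Bmp2 in WT. Over all 8 libraries Bmp3 was above 86.6% of tested genes per exon length, Gdf10 above 83.8%, Bmp4 above 78.1% and Bmp2 above 76.5%, while Gdf5 was above 9.72%.

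Summed over the 10 genes, ligand transcripts came to 69.4 ± 3.03 RPKM in KO and 65.4 ± 2.97 RPKM in WT (SD, n = 4 each), and the groups overlapped, at 66.5 to 72.9 RPKM in KO and 61.6 to 68.2 RPKM in WT. Bmp2 and Bmp4 together made up 32.0 to 35.4% of the sum in KO libraries and 25.1 to 30.2% in WT libraries. Bmp3 and Gdf10 together made up 40.9 to 44.9% in KO libraries and 48.9 to 51.7% in WT libraries. Neither pair's shares overlapped between the groups. In summed RPKM, Bmp3 and Gdf10 did overlap, at 27.5 to 31.9 RPKM in KO libraries and 30.1 to 35.1 RPKM in WT libraries. These sums follow from the single genes given above and were not tested. The subgroup of Bmp5, Bmp6, Bmp7 and Bmp8a held 22.6 to 24.0% in KO libraries and 19.8 to 22.8% in WT libraries, which overlapped, while its sums of 15.63 to 17.5 RPKM in KO libraries and 12.8 to 15.56 RPKM in WT libraries did not, by a small margin.

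**Figure D3:**
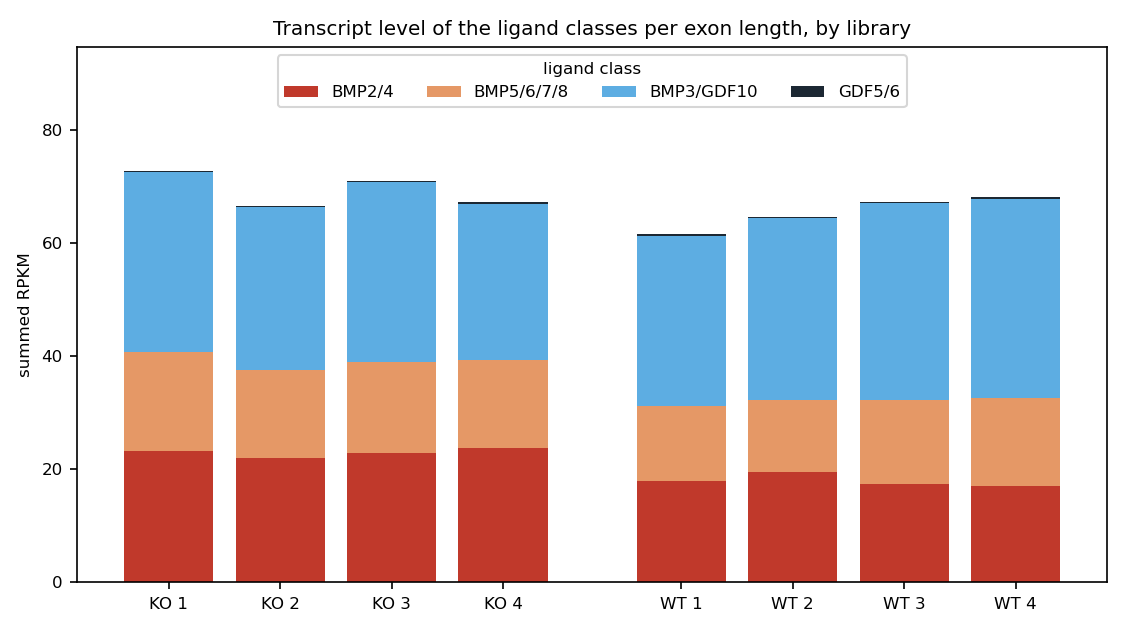
Summed RPKM of the ligand genes in each library (y axis), KO libraries left and WT libraries right, stacked by subgroup. The segment of Bmp2 and Bmp4 spans 22.0 to 23.8 RPKM in KO and 17.1 to 19.5 RPKM in WT, and that of Gdf5 and Gdf6 is barely visible.

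None of the 10 genes lies on chromosome 1, which carries Kcnj9. Bmp4 and Gdf10 share chromosome 14 but lie far apart on it. Within 500 kb of either gene, a window chosen after the values were seen, edgeR called 0 of 9 tested neighbours of Bmp4 (1 at an unadjusted p under 0.05, 0 in DESeq2 and 0 in limma-voom) and 0 of 10 of Gdf10 (2 at an unadjusted p under 0.05, 0 in both other tools).

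The genes whose centred log2 CPM over the 8 libraries lay closest to that of Bmp4 were Rmi2, a subunit of a DNA repair complex, with a root mean square difference of 0.0666, Abtb1 (0.0741) and Mum1 (0.0767), against a median of 0.289 over the tested genes compared (those with a symbol other than a model or clone number). Rmi2 was at 3.67 ± 0.182 CPM in KO and 2.68 ± 0.303 CPM in WT, and Mum1 at 69.3 ± 5.63 CPM in KO and 55.3 ± 3.92 CPM in WT (SD, n = 4 each). For Gdf10, with a median of 0.286, they were Ttyh2, a tweety family membrane protein gene (0.0657), Relb, an NF-kappaB subunit gene (0.0711), and Ehd1, an endocytic recycling gene (0.0727). Ttyh2 was at 33.2 ± 3.83 CPM in KO and 45.5 ± 3.76 CPM in WT, and Ehd1 at 88.2 ± 6.79 CPM in KO and 114 ± 6.18 CPM in WT (SD, n = 4 each). These 6 genes were picked for closeness to a called ligand over both groups, so a similar difference between the groups follows from the choice. Of them, Ttyh2 (log2 change -0.45) and Ehd1 (-0.37) passed the edgeR test (adjusted p = 0.0333 and 0.0316), against 1.32% of all tested genes. Both calls were lost without KO library 2 (0.126 and 0.129), KO library 3, or WT libraries 2, 3 or 4. That of Ehd1 was also lost without KO library 1 (0.0527). Without the 3 muscle-poor libraries neither passed (Ttyh2 log2 change -0.32, adjusted p = 0.499; Ehd1 -0.27, 0.518), and Ttyh2 did not pass in limma-voom (0.0519) nor Ehd1 with scaling by library totals (0.0639).

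Around the ligands, 3 abundant genes of secreted antagonists did not pass in edgeR. Fstl1 was at 1297 CPM in KO and 1242 CPM in WT (log2 change 0.06), Twsg1 had a log2 change of -0.07 and Nbl1 of 0.11.

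Of 8 SMADs and SMAD regulators, Smad9, 1 of the receptor SMADs of the BMP branch, rose and none fell (2 at an unadjusted p under 0.05, 2 called in DESeq2 and 1 in limma-voom, median log2 change -0.002). It was at 28.8, 25.9, 27.1 and 24.0 CPM in KO libraries and 20.4, 20.97, 18.6 and 18.4 CPM in WT libraries (log2 change 0.43 ± 0.0797 SE, edgeR adjusted p = 0.0231). The call was lost without any 1 of KO libraries 1, 2 and 3 and WT libraries 2, 3 and 4, with adjusted p up to 0.0828, and without the 3 muscle-poor libraries (0.420). Smad5, Smad4 and Smurf2 had log2 changes of -0.01, -0.002 and 0.05. The other gene at an unadjusted p under 0.05 was Smad6, which did not pass (log2 change 0.32 ± 0.0861 SE, edgeR adjusted p = 0.0949). It was at 59.6 ± 5.02 CPM in KO and 47.7 ± 4.75 CPM in WT (SD, n = 4 each), and the groups overlapped.

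In edgeR, no gene passed among 12 receptors and co-receptors (2 at an unadjusted p under 0.05, median log2 change -0.04), 11 BMP target genes (3 at an unadjusted p under 0.05, median 0.002), 6 tested proteases that act on BMPs or on the antagonist chordin (0 at an unadjusted p under 0.05, median 0.07) or 6 tested ligands outside the 10 (0 at an unadjusted p under 0.05, median -0.09). DESeq2 and limma-voom called 0 in each of these lists. The type I receptor gene Bmpr1a was at 119 ± 10.8 CPM in KO and 120 ± 7.31 CPM in WT, the type II receptor gene Bmpr2 at 131 ± 17.1 CPM in KO and 150 ± 13.5 CPM in WT, and the co-receptor gene Eng at 133 ± 23.6 CPM in KO and 156 ± 17.5 CPM in WT (SD, n = 4 each). The 2 genes of this list at an unadjusted p under 0.05 in edgeR were the co-receptor genes Rgma (log2 change 0.32) and Rgmb (0.31). Of all 12 genes, 5 had a log2 change above 0 and 7 below. Among the targets, Id3 was at 196 ± 36 CPM in KO and 190 ± 19.4 CPM in WT and Id2 at 119 ± 9.57 CPM in KO and 136 ± 11.3 CPM in WT (SD, n = 4 each), and the homeobox gene Dlx5 had a log2 change of 0.002. The 3 targets at an unadjusted p under 0.05 in edgeR were Id1 (log2 change -0.37), Id2 (-0.19) and Msx2 (0.26). Of all 11 targets, 6 had a log2 change above 0 and 5 below. Of the proteases, Bmp1, which cleaves procollagen and the antagonist chordin and is no BMP itself, had a log2 change of 0.04, Pcsk6 of 0.10 and Furin of 0.05. Gdf11 was the most abundant of the other ligands, at 19.3 CPM in KO and 20.3 CPM in WT; Gdf9 (log2 change 0.10) was at 1.52 CPM in KO and 1.41 CPM in WT, and Bmp15 (-0.24) at 0.984 CPM in KO and 1.16 CPM in WT.

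**Figure D4:**
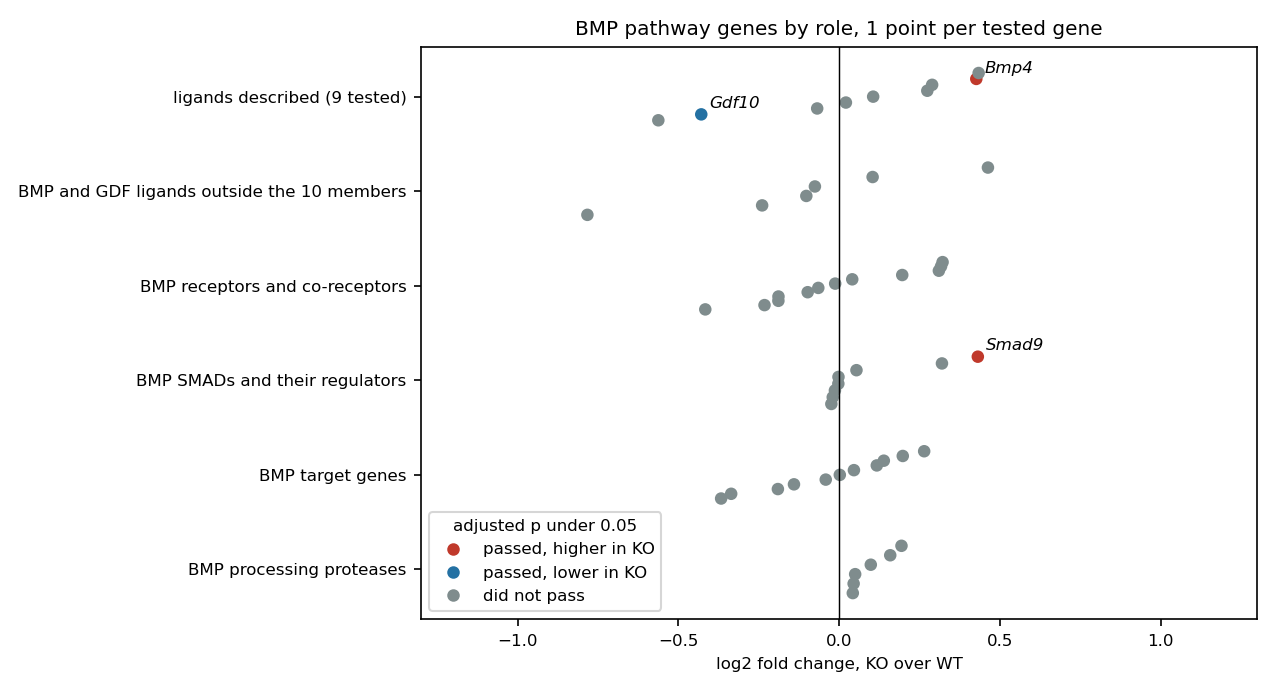
Log2 fold change, KO over WT (x axis), of the tested genes of 6 roles in the pathway (rows; secreted antagonists are not drawn), 1 point per gene, with genes that passed at an adjusted p under 0.05 coloured and named. Bmp4 and Smad9 lie above 0, Gdf10 lies below, and the other points did not pass.

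Markers of other cells and states that moved with genotype were counted beside these results. Of 10 immediate early genes, 9 fell, and their sum was 180 to 199 CPM in KO and 313 to 401 CPM in WT. Of 8 macrophage genes, 4 fell (Lyz2, Ctss, Cx3cr1 and Ccr2), with sums of 379 to 458 CPM in KO and 515 to 674 CPM in WT. All 8 macrophage genes had a log2 change below 0, with 7 at an unadjusted p under 0.05 in edgeR. DESeq2 called 7 of them and limma-voom 4. Of 6 suture mesenchyme genes, 2 rose (Gli1 and Axin2), with overlapping sums of 766 to 809 CPM in KO and 718 to 782 CPM in WT. DESeq2 called 2 suture mesenchyme genes and limma-voom 1. None of these markers was at 0 in all libraries, and their part in the changes of Bmp4, Gdf10 and Smad9 was not tested. Of the other lists, 1 gene fell among 8 osteoblast markers (Bglap), 4 tendon and joint markers (Prg4) and 6 neural markers (Mbp). In each of these lists DESeq2 called 1 gene, while limma-voom called 0 osteoblast, 1 tendon and joint and 1 neural marker. In edgeR, 0 passed among 5 osteocyte (1 at an unadjusted p under 0.05), 7 tested cartilage (1), 9 skeletal muscle (0), 7 osteoclast (6), 3 tested epidermis (0), 5 meningeal (0), 5 endothelial (0) and 4 adipocyte genes (1). DESeq2 called 1 osteocyte and 3 osteoclast genes of these, and limma-voom 0. All 7 osteoclast genes had a log2 change below 0 (median -0.51). Their sums overlapped, at 3862 to 5860 CPM in KO and 5529 to 8191 CPM in WT. With the muscle, cartilage or epidermis level as a covariate, Bmp4 (adjusted p 0.0112 to 0.0143) and Gdf10 (0.0306 to 0.0367) passed in edgeR. The muscle, cartilage and epidermis levels overlapped between the groups. The macrophage and immediate early levels, which did not overlap, were not used as covariates.

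**Figure D5:**
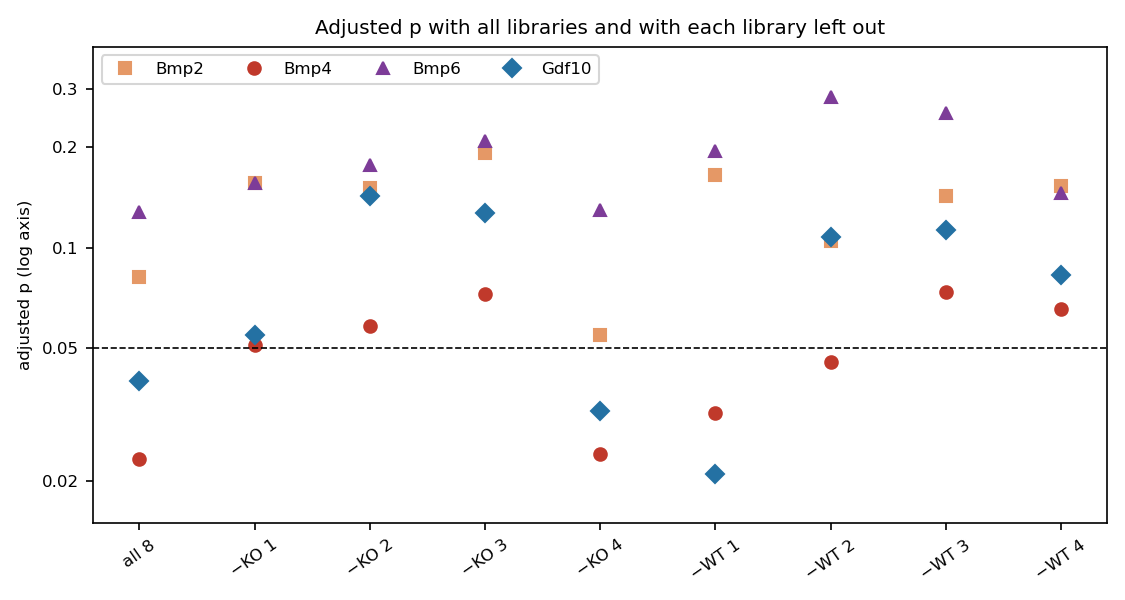
Adjusted p from edgeR (y axis, log scale) of Bmp2, Bmp4, Bmp6 and Gdf10 with all 8 libraries and with each library left out (x axis); the dashed line is 0.05. Bmp4 passes in 3 and Gdf10 in 2 of the 8 fits with 1 library left out, and Bmp2 and Bmp6 in none.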

How the data were processed

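The authors deposited raw counts per Ensembl gene ID, 1 column per library, with no normalization. STAR 2.5.2b, bcl2fastq 2.17, Subread 1.5.2 (featureCounts) and mm10 are named in the submitters' processing notes. No source used here gives the annotation release or states whether counting used strand, so a gene and its antisense partner cannot be told apart. Positions, exon lengths and overlaps came from GENCODE mouse release M21 (GRCm38), which named 49056 of the 49315 IDs.

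Genes were filtered with edgeR's filterByExpr (minimum count 10, total 15), libraries scaled with TMM factors (0.972 to 1.04), and KO compared with WT by the two-sided quasi-likelihood test of edgeR 4.0.16 (R 4.3.3), adjusted over 17743 genes by Benjamini and Hochberg. SE is the log2 change over the root of its F statistic. DESeq2 1.42.0 and limma-voom (limma 3.58.1) were alternatives, besides other scalings and filters, covariates for tissue carried along, a replicate block and leaving out libraries. On simulated counts for this comparison, with 17463 genes, the test recovered 37 of 67 genes changed 1.5-fold and 54 of 67 changed 2-fold. Libraries were not duplicates (closest pair, chi-square 9.23 per degree of freedom). Floors cover counting error only.

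The ligands and all gene lists were chosen with earlier results of these data known. Named genes were the ligands, every called gene and otherwise up to 3 of the most abundant of each pathway list, and the 3 genes (model and clone numbers left out) of closest profile to each called ligand; called genes of the marker lists were named after their values were seen. Genes of the receptor, SMAD and target lists at an unadjusted p under 0.05 were also named after their values were seen. Figures used matplotlib 3.10.9. Some results of the secreted antagonist list are not reported here.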

Additional observations from a re-analysis of the deposited data

Results flagged for a closer look

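In groups of 4 libraries, 70 groups were checked for a single library standing apart by its gap to the nearest value; 5 did, and about 3.5 would be flagged by chance. Bmp3 was at 135 CPM in WT library 3, against 117 CPM (116.6 to 117.1) in the other WT libraries. Bmp6 was at 12.6 CPM in KO library 4, against 8.51 to 9.18 CPM in the other KO libraries, and its log2 change was 0.30 without that library, against 0.43 with it. The BMP receptor and co-receptor genes summed to 707 CPM in KO library 1, against 602 to 618 CPM in the other KO libraries. The SMAD genes and their regulators summed to 443 CPM in WT library 1, against 481 to 486 CPM in the other WT libraries. The neural markers summed to 59.3 CPM in WT library 1, against 30.0 to 32.6 CPM in the other WT libraries.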

How the results depend on the processing

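Of 289 values of single genes and ligand subgroups under the alternatives, 238 kept direction and, where there was an adjusted p, side of the threshold. Gdf6 and the subgroup sums had no adjusted p, and genes without a call could not lose one. The 42 lost calls were of Bmp4 (7 of 20 alternatives), Gdf10 (10), Smad9 (8), Ttyh2 (8) and Ehd1 (9). Calls were gained in 2 (Bmp2, in DESeq2 and at an adjusted p under 0.1). Sign changed in 7, all with 1 library left out and all of genes without a call. With 1 library left out, the log2 change of Bmp5 ran from -0.17 to 0.0514 and that of Bmp7 from -0.0154 to 0.0752, and the CPM difference of Gdf6 from -0.0364 to 0.0467. The number of called genes, 234, became 657 in DESeq2, 355 without a filter on low counts, 481 and 455 with the cartilage and epidermis covariates, 572 at an adjusted p under 0.1 and 8 without the 3 muscle-poor libraries, where 2 KO and 3 WT libraries remained. With 1 library left out it ran from 57 (without KO library 2) to 608 (without KO library 4). The number of called ligands, 2, became 3 in DESeq2 (with Bmp2), 1 (Bmp4) with library totals and in limma-voom and 0 without the 3 muscle-poor libraries, and ran from 0 to 2 with 1 library left out. It was 0 without KO library 1, 2 or 3 or WT library 3 or 4. Same-numbered libraries of the groups did not deviate together (correlations -0.18 to 0.34 over genes, and not every library correlated best with its own number), so no pairing by number was seen. The highest correlation, 0.56, was between KO library 2 and WT library 3, both muscle-poor. Such a check over all genes cannot exclude litters shared by number. With the replicate block 126 genes and 0 ligands were called in edgeR, with adjusted p = 0.0703 for Bmp4, 0.0829 for Gdf10, 0.0526 for Smad9, 0.0686 for Ttyh2 and 0.0740 for Ehd1. The causes were not tested. Depth limits Gdf5 and Gdf6.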
